A study of Mus musculus with 4 samples.

Results

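The expression of 10 transcription factor genes of the formative and neural programmes was compared between Smg6-deficient and wild-type mouse embryonic stem (ES) cells. The members, a list given by gene symbol, were Otx2, Pou3f1, Foxd3, Gbx2, Sox1, Sox3, Pax6, Zic2, Zic5 and Neurod1, of 37224 Ensembl genes in the files. Smg6 is an endonuclease of nonsense-mediated decay (NMD), which removes transcripts with a stop codon read as premature. RNA-seq libraries were compared for 2 groups, Smg6 deficient (2 libraries) and wild type (2 libraries). The labels give both groups the cell type ES cells and the tissue Embryo, and name no allele, line, sex, culture medium or feeder layer. Whether the 2 libraries of each group stem from independent cultures is not stated, so each p-value reflects a spread between libraries that may be technical.

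Naive ES cells resemble the epiblast before implantation. On leaving that state they pass through a formative stage, in which Otx2 and Pou3f1 (Oct6) accompany the loss of naive factors, and from there can take neural fate under Sox1, Pax6 and Zic factors. Neurod1 acts later, in neurons and endocrine cells. Several members have other sites of action: Otx2 is also active in visceral endoderm, Foxd3 in the naive epiblast and neural crest, and Gbx2 in ES cells as a target of LIF and Stat3, besides its role at the boundary of midbrain and hindbrain.

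Total gene counts were 155391181 and 137937779 in Smg6-deficient libraries 1 and 2, and 137643993 and 130888768 in wild-type libraries 1 and 2. Smg6 itself stood at 87.6 and 86.2 CPM in the Smg6-deficient libraries and 95.7 and 105.1 CPM in the wild-type libraries (log2 fold change -0.21, SE 0.083, edgeR adjusted p = 0.089), which passed in 4 of 14 alternatives, all lower. A count over a whole gene does not show whether some exons were lost. CPM are read counts divided by TMM-scaled library size. All 10 listed ES cell markers had reads in every library, with Pou5f1 at 632.4 ± 0.70 CPM in Smg6-deficient cells and 890.9 ± 64.3 CPM in wild-type cells (SD, n = 2 each). Dppa5a, another of them, stood at 430.7 ± 19.6 CPM in Smg6-deficient cells and 948.0 ± 59.8 CPM in wild-type cells, and Tdgf1 at 487.1 ± 23.9 CPM in Smg6-deficient cells and 578.5 ± 167.8 CPM in wild-type cells. Leaving out wild-type replicate 1 turned the sign of Tdgf1. Fold changes below are Smg6-deficient over wild type, and an adjusted p under 0.05 from edgeR's quasi-likelihood test, Benjamini-Hochberg adjusted over 20895 genes, counts as passing.

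The 10 genes moved in both directions. Gbx2, Neurod1, Pou3f1, Foxd3 and Sox1 rose in Smg6-deficient cells, Zic2, Zic5 and Pax6 fell, and Otx2 and Sox3 had lower values that did not pass. All 10 had enough reads to be tested. Among all tested genes 20.5% rose and 19.2% fell, so that calls in either direction made up 39.7%. The median log2 fold change of the 10 was 0.31, against 0.0080 over all tested genes. For each of the 10, both Smg6-deficient libraries lay on one side of both wild-type libraries, as they did for 73.2% of all tested genes. Listed ES cell markers changed too, more often lower than higher. Of the 10 listed, 6 fell (Pou5f1, Nanog, Zfp42, Esrrb, Klf4 and Dppa5a), 1 rose (Lin28a) and 3 did not pass, against 19.2% of all tested genes that fell and 20.5% that rose. Nanog, a factor of the naive state, stood at 156.1 ± 1.02 CPM in Smg6-deficient cells and 640.1 ± 121.0 CPM in wild-type cells (log2 fold change -2.04, edgeR adjusted p = 0.00025). The summed level of the markers was 1607 and 1473 RPKM in Smg6-deficient libraries and 3006 and 2415 RPKM in wild-type libraries, and their median log2 fold change was -0.49. Their part in the levels of the 10 factors was not tested. In these cultures, a change in the number of cells of one type and a change in RNA per cell cannot be told apart.

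**Figure D1:**
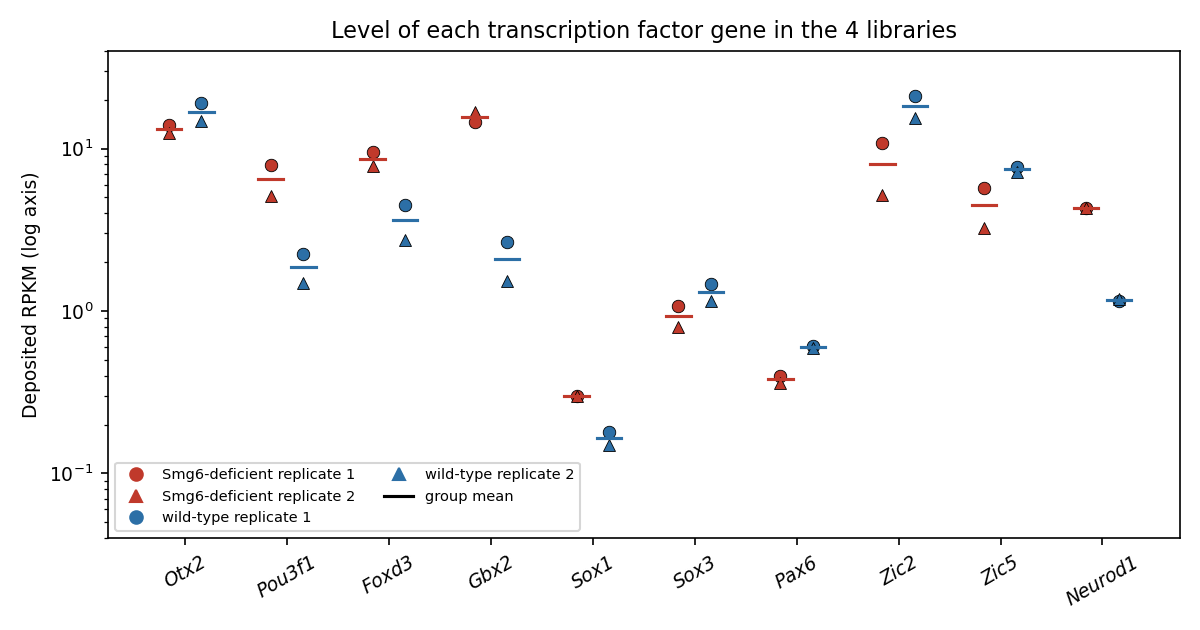
Deposited RPKM (vertical log axis) of the 10 genes in each library, Smg6-deficient at left in red and wild type at right in blue, with circles for replicate 1, triangles for replicate 2 and a line at the group mean. Gbx2 stood at 14.7 and 16.7 RPKM in Smg6-deficient libraries and 2.64 and 1.53 RPKM in wild-type libraries, the widest gap of the 10.

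Gbx2 (ENSMUSG00000034486; GRCm38 chromosome 1, 89927956 to 89931179, minus strand), a homeodomain factor, had the greatest change of the 10. It stood at 72.6 and 87.4 CPM in Smg6-deficient libraries 1 and 2, from 11071 and 11797 reads, and at 12.6 and 7.77 CPM in wild-type libraries 1 and 2, from 1766 and 1040 reads. Both Smg6-deficient libraries lay well above both wild-type libraries, and the wild-type pair differed 1.62-fold from each other. The log2 fold change was 2.97 (SE 0.23), or 7.84-fold (edgeR adjusted p = 0.00034). At least 2-fold rises were called for 5.42% of all tested genes.

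Part of the Gbx2 signal cannot be assigned to one strand, because the kit did not mark it. The noncoding gene D130058E05Rik lies on the plus strand across the first part of Gbx2, with 946 exonic bases in common, and 42.2% of the 50-base words of the Gbx2 transcripts also occur in overlapping genes. D130058E05Rik had 15.04 and 18.7 CPM in Smg6-deficient libraries and 2.36 and 1.60 CPM in wild-type libraries (edgeR adjusted p = 0.00027 for a log2 fold change of 3.09, SE 0.22). Of all tested genes with a symbol it had the profile closest to that of Gbx2 over the 4 libraries (Euclidean distance of centred log2 CPM, 0.13). Stra6, the retinol transporter, followed (distance 0.27, log2 fold change 3.17).

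Pou3f1 (ENSMUSG00000090125; chromosome 4, 124656807 to 124660655, plus strand), a POU factor of the formative epiblast and early neural plate, stood at 27.7 and 19.0 CPM in Smg6-deficient libraries and 7.54 and 5.33 CPM in wild-type libraries. The groups were clearly separated, although replicate 1 was the higher in both. The rise was 3.63-fold, a log2 fold change of 1.86 (SE 0.23; edgeR adjusted p = 0.0015). The nearest profiles were those of Cend1 (distance 0.11) and Dlec1 (0.23), whose log2 fold changes were 2.06 and 1.98.

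Foxd3 (ENSMUSG00000067261; chromosome 4, 99656299 to 99658622, plus strand), a forkhead factor, stood at 26.6 and 22.7 CPM in Smg6-deficient libraries and 12.02 and 7.77 CPM in wild-type libraries. The lower Smg6-deficient library was still above the higher wild-type one, and the wild-type pair differed 1.55-fold. Its log2 fold change of 1.31 (SE 0.21) passed (edgeR adjusted p = 0.0035). The closest profiles were those of Sox4, a SoxC factor (distance 0.086; log2 fold change 1.38), and Zyx, a focal adhesion protein (0.090; 1.27).

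Otx2 (ENSMUSG00000021848; chromosome 14, 48657677 to 48673819, minus strand), the homeodomain factor most closely tied to the formative transition, did not pass. It stood at 55.7 and 52.1 CPM in Smg6-deficient libraries and 72.6 and 60.4 CPM in wild-type libraries, so that values were lower in Smg6-deficient cells but close between the nearest libraries. The log2 fold change was -0.30 (SE 0.11, edgeR adjusted p = 0.064). The call turned with small changes of procedure. Otx2 passed without wild-type replicate 2 (log2 fold change -0.45, edgeR adjusted p = 0.0021), and without wild-type replicate 1 its log2 fold change was -0.15 (edgeR adjusted p = 0.15).

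Zic2 and Zic5, zinc-finger factors of the neural plate and neural tube, fell. They are neighbours on chromosome 14, where Zic5 (ENSMUSG00000041703; 122456795 to 122465677, minus strand) and Zic2 (ENSMUSG00000061524; 122475435 to 122479852, plus strand) point away from each other with 9758 bases between them. Zic2 stood at 36.5 and 18.4 CPM in Smg6-deficient libraries 1 and 2 and 68.5 and 52.9 CPM in wild-type libraries 1 and 2. Zic5 stood at 32.8 and 19.6 CPM in Smg6-deficient libraries and 42.6 and 42.2 CPM in wild-type libraries. For both genes every Smg6-deficient library was below every wild-type library, and Smg6-deficient replicate 2 was the lowest of the 4.

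Zic2 fell by 1.14 on the log2 scale (SE 0.30; edgeR adjusted p = 0.023) and Zic5 fell by 0.70 (SE 0.22; edgeR adjusted p = 0.042). Falls of at least 2-fold were called for 8.03% of all tested genes. The size of both falls depended on which Smg6-deficient library was kept. Without replicate 1 the log2 fold change was -1.72 for Zic2 and -1.10 for Zic5, and without replicate 2 it was -0.72 for Zic2 and -0.36 for Zic5, where Zic5 no longer passed (edgeR adjusted p = 0.12). The DESeq2 Wald test kept the direction of Zic2 but not its call (adjusted p = 0.061). Nearest to Zic2 in profile were the X-linked Foxr2 (distance 0.17; log2 fold change -1.06) and Slc26a9 (0.20; -1.26).

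Of their relatives, Zic1 and Zic4 were under 1 CPM in every library and did not pass (edgeR adjusted p = 0.12 and 0.37).

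**Figure D2:**
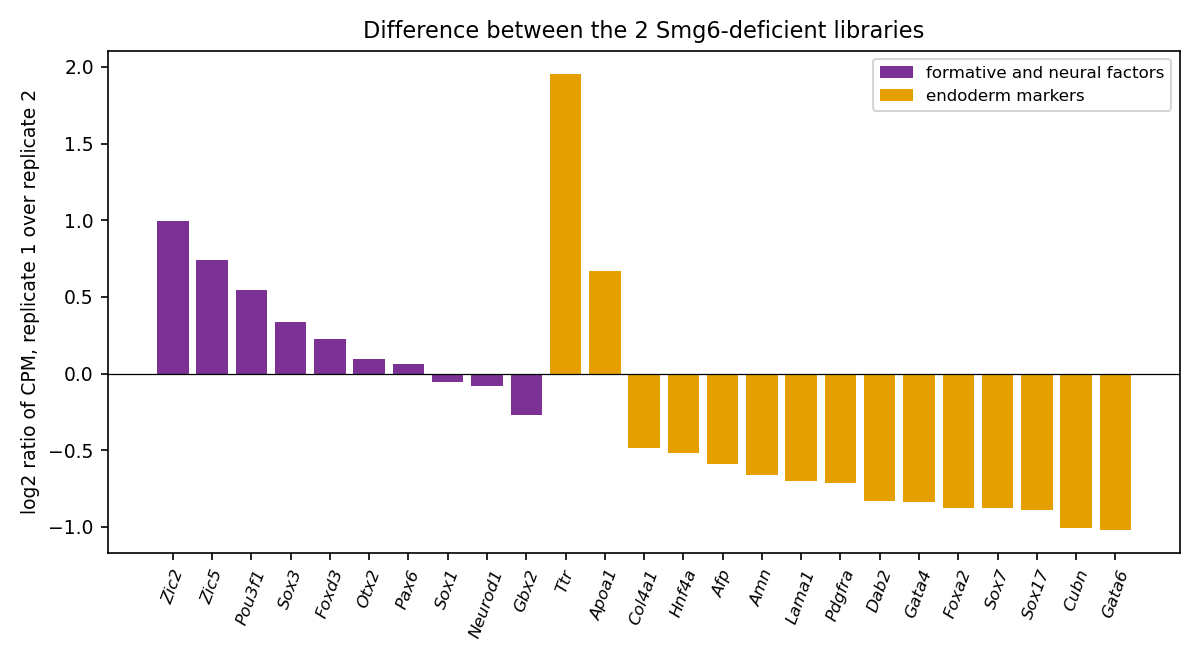
Log2 ratio of CPM in Smg6-deficient replicate 1 over replicate 2 (vertical axis) for the 10 factors in purple and 15 endoderm markers in orange. Zic2 (0.99), Zic5 (0.74) and Pou3f1 (0.54) were higher in replicate 1, while 13 of the 15 endoderm markers were higher in replicate 2.

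Between the 2 Smg6-deficient libraries, Zic2 and Zic5 differed more than most genes. Replicate 1 was 1.99-fold above replicate 2 for Zic2 and 1.67-fold for Zic5. Among 14713 tested genes with reads in every library and a mean level at least that of Sox1, the lowest member, only 0.41% and 0.86% differed more between these libraries. Pou3f1 and Sox3 were also higher in replicate 1, and 1.94% and 6.43% of these genes differed more. Markers of endoderm, a lineage that ES cultures can yield, went the other way. Their summed level was 192.6 and 288.2 RPKM in Smg6-deficient libraries 1 and 2 and 44.7 and 35.5 RPKM in wild-type libraries 1 and 2. Of the 15 markers, 12 were called higher and 2 lower, against 20.5% and 19.2% of all tested genes. Among the highest of them, Lama1, Col4a1 and Cubn had log2 fold changes of 3.62, 2.04 and 4.95. Gata4, Gata6 and Sox17, also called higher, had reads in every library, and of the 15 only Ttr was at 0 in a library, wild-type replicate 2. The 2 called lower were Hnf4a (log2 fold change -1.13, edgeR adjusted p = 0.026) and Afp (-1.69, edgeR adjusted p = 0.013). Apoa1 did not pass (-0.66, edgeR adjusted p = 0.20). On the log2 scale, replicate 2 over replicate 1 had a median of 0.71 for the endoderm markers, against -0.16 for the 10 factors and -0.0083 for all tested genes. Of the 10 factors, 3 were higher in replicate 2, Gbx2 among them. The part of endoderm cells in the levels of the 10 factors was not tested.

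Sox1 and Sox3, SoxB1 factors of the neural plate, were both low. Sox1 (ENSMUSG00000096014; chromosome 8, 12395295 to 12400126, plus strand), an early marker of neuroectoderm, had 259 and 238 reads in Smg6-deficient libraries and 135 and 115 reads in wild-type libraries. That made 1.70 and 1.76 CPM in Smg6-deficient libraries and 0.96 and 0.86 CPM in wild-type libraries, with little spread inside either group. Its log2 fold change of 0.92 (SE 0.19) passed (edgeR adjusted p = 0.011), but not without Smg6-deficient replicate 2 (0.91, edgeR adjusted p = 0.061).

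Sox3 (ENSMUSG00000045179; chromosome X, 60891366 to 60893430, minus strand) stood at 2.56 and 2.03 CPM in Smg6-deficient libraries and 3.41 and 2.88 CPM in wild-type libraries. With a log2 value of -0.45 for the change (SE 0.19) it did not reach the threshold (edgeR adjusted p = 0.10). It passed with a correction for gene length and GC content (-0.73, edgeR adjusted p = 0.026) and without wild-type replicate 2 (-0.59, edgeR adjusted p = 0.029). X-linked genes as a whole were lower, with a median log2 fold change of -0.76 over 1040 tested genes, of which 3.56% rose and 56.7% fell. Of 19430 autosomal genes, 21.6% rose and 17.3% fell. Sox2, the SoxB1 factor of pluripotent cells, stood at 402.2 ± 5.89 CPM in Smg6-deficient cells and 474.8 ± 81.8 CPM in wild-type cells and did not pass (log2 fold change -0.24, edgeR adjusted p = 0.17).

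Pax6 (ENSMUSG00000027168; chromosome 2, 105668900 to 105697364, plus strand), the paired-domain factor of eye and forebrain, fell. It stood at 9.22 and 8.82 CPM in Smg6-deficient libraries and 13.7 and 14.0 CPM in wild-type libraries, with replicates close together in both groups. The log2 fold change was -0.62 (SE 0.11, edgeR adjusted p = 0.0048). Sox1 and Pax6, both genes of neural progenitors, thus passed in opposite directions.

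Neurod1 (ENSMUSG00000034701; chromosome 2, 79452521 to 79456751, minus strand), a basic helix-loop-helix factor of neurons and endocrine cells, rose. It stood at 13.7 and 14.5 CPM in Smg6-deficient libraries and 3.56 and 3.85 CPM in wild-type libraries, the tightest replicates of the 4 members that rose at least 2-fold. The log2 fold change was 1.93 (SE 0.12, edgeR adjusted p = 0.00022), or 3.80-fold. Prune2 (distance 0.078; log2 fold change 1.95) and Ryr3, a calcium release channel (0.081; 1.96), had the nearest profiles. Cerkl, which shares 201 exonic bases with Neurod1 on the same strand, moved the other way (log2 fold change -0.58, edgeR adjusted p = 0.042), a call kept in 9 of 14 alternatives.

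**Figure D3:**
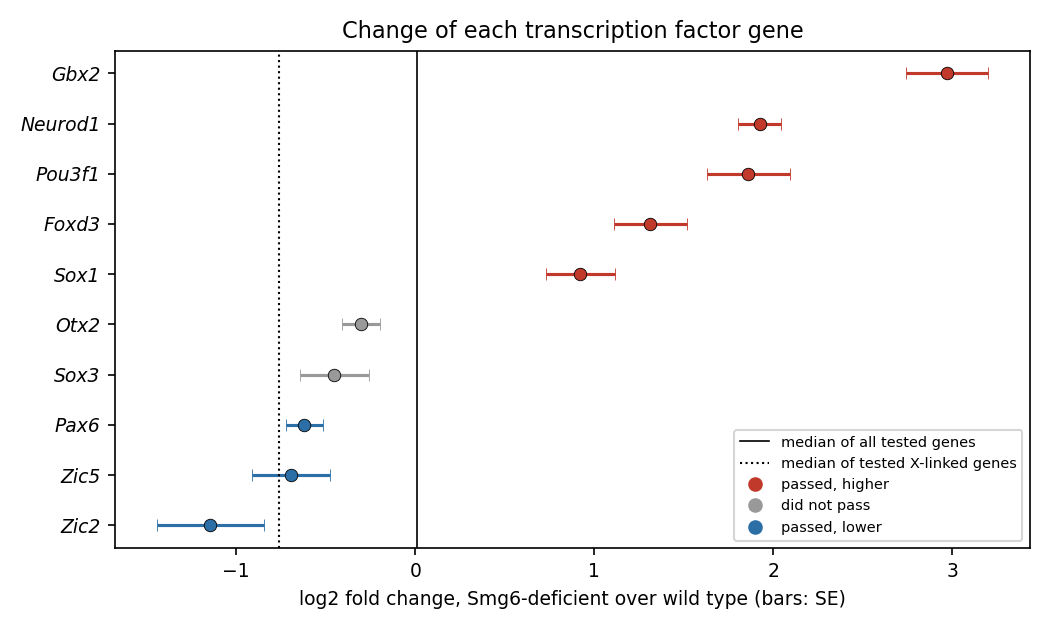
Log2 fold change of each gene, Smg6-deficient over wild type (horizontal axis), with bars of 1 SE. Gbx2 (2.97), Neurod1 (1.93), Pou3f1 (1.86), Foxd3 (1.31) and Sox1 (0.92) passed as higher in red, Zic2 (-1.14), Zic5 (-0.70) and Pax6 (-0.62) as lower in blue, and Otx2 and Sox3 in grey did not pass. The solid line is the median of all tested genes and the dotted line that of X-linked genes.

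Of the 10 genes, 7 had promoter windows in the RefSeq table, 11 windows in all. Bases before 4 starts are printed here, to set the start of the gene with the greatest rise beside those of 2 other risers and of 1 gene that fell. Bases next to the start that lie in an annotated exon of a coding transcript are left out. Of the 250 bases before the start, 247 are shown for Gbx2, 135 for Neurod1, 250 for Foxd3 and 231 for Zic5. Distances given below are counted from the start, not from the end of the stretch. Capitals mark matches, on either strand and with no overlap between them, to any of 9 motifs searched, whose letters stand with their shares after the sequences.
Gbx2 (GRCm38.p6 chr1:89931180-89931426, minus strand): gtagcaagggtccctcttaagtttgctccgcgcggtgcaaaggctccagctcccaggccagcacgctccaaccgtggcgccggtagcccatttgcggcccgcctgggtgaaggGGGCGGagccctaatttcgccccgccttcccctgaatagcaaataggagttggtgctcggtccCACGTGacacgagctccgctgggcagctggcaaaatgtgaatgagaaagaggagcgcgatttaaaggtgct
Neurod1 (GRCm38.p6 chr2:79456752-79456886, minus strand): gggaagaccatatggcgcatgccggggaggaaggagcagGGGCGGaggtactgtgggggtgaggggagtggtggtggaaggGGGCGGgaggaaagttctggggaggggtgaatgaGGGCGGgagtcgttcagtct
Foxd3 (GRCm38.p6 chr4:99656049-99656298, plus strand): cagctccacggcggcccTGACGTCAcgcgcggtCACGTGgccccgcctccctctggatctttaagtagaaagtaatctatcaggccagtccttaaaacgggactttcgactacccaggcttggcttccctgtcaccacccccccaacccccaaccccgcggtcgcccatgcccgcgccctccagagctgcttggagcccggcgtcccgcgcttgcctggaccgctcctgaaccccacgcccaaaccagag
Zic5 (GRCm38.p6 chr14:122465678-122465908, minus strand): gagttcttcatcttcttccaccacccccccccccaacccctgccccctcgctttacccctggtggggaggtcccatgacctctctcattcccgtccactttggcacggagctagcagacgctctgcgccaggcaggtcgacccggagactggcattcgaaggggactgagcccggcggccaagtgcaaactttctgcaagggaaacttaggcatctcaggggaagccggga

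Gbx2, with the greatest rise, had 1 GC box 137 bases and 1 E-box 74 bases before its start. Neurod1 had 4 GC boxes within 250 bases, 3 of them in the stretch shown. Foxd3 had an E-box 217 bases and a cyclic AMP response element 233 bases before its start, and Zic5 matched none of the 9 motifs. Each motif was searched in the 250 bases before the start of 32851 RefSeq promoters. The GC box (GGGCGG) was held by 32.7% of them and by 3 of the 11 windows of the 10 genes. The E-box (CACGTG) was held by 6.02% of all and 2 of the 11. The cyclic AMP response element (TGACGTCA) was held by 1.55% of all and 2 of the 11. Its second window was that of Pax6, so that this motif stood before a gene that rose and a gene that fell. The CCAAT box, named by its own letters, was held by 33.8% of all and 3 of the 11. The GATA site (AGATAA) stood in 9.99% of all and in 2 windows, both of Otx2. The OTX site (TAATCC) stood in 6.25% of all and in 1 window, also of Otx2. The SOX site (ACAAAG, 16.5% of all) stood before Pax6, and the TATA box (TATAAA, 12.4% of all) before Otx2. The octamer (ATGCAAAT), held by 1.60% of all promoters, was in 0 of the 11. The letters are a description and no binding was measured.

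An exon junction well downstream of the stop codon is the best-known feature that exposes a transcript to NMD. In GENCODE M21, Pou3f1, Foxd3, Sox1 and Sox3 consist of 1 exon, as do 3.11% of 16455 tested protein-coding genes. The other 6 genes are spliced, and none of the 10 has a transcript with a junction more than 50 bases after its stop codon, a feature annotated for 25.9% of tested protein-coding genes. Both kinds of gene are found among the risers: Pou3f1, Foxd3 and Sox1 have 1 exon, and Gbx2 and Neurod1 have 2. Of the 511 tested coding genes with 1 exon, 15.5% rose and 20.5% fell. Of the 15944 with more exons, 24.1% rose and 20.3% fell.

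Levels between genes were compared per length, on the deposited RPKM. In Smg6-deficient cells Gbx2 (14.7 and 16.7 RPKM) and Otx2 (14.1 and 12.5 RPKM) led. Foxd3, Zic2, Pou3f1, Zic5 and Neurod1 followed, with 9.59 and 7.76, 10.9 and 5.18, 7.90 and 5.13, 5.74 and 3.26, and 4.30 and 4.31 RPKM, and neighbours in that order overlapped. Sox3 (1.07 and 0.80 RPKM), Pax6 (0.40 and 0.36 RPKM) and Sox1 (0.30 RPKM in both) stood lowest.

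In wild-type cells Zic2 (21.1 and 15.3 RPKM) and Otx2 (19.0 and 14.8 RPKM) led and overlapped, followed by Zic5 (7.74 and 7.21 RPKM) and Foxd3 (4.50 and 2.73 RPKM). Gbx2 (2.64 and 1.53 RPKM) overlapped Pou3f1 (2.23 and 1.48 RPKM), and Sox3 (1.47 and 1.16 RPKM) overlapped Neurod1 (1.16 and 1.18 RPKM). Pax6 (0.61 and 0.59 RPKM) and Sox1 (0.18 and 0.15 RPKM) closed the order. Gbx2 thus ranked 1 of 10 by mean in Smg6-deficient cells and 5 of 10 in wild-type cells, and Zic2 ranked 4 and 1. The deposited RPKM of Gbx2 and Pax6 rest on lengths 1.95 and 1.69 times those of their M21 exons. Recomputed with M21 lengths and total gene counts, Gbx2 stood at 32.7 and 39.3 RPKM in Smg6-deficient libraries. In wild-type libraries it stood at 5.89 and 3.65 RPKM, and it ranked 1 and 4. Library sizes differ from those of the deposited RPKM, so the 2 sets of values are not on one scale.

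Other genes of the formative and primed states mostly rose. Of 16 listed and tested, 11 rose and 2 fell, against 20.5% and 19.2% of all tested genes. Their median log2 fold change was 0.95, against 0.0080 over all tested genes. Wnt8a, a Wnt ligand of the early streak, stood at 9.89 ± 2.11 CPM in Smg6-deficient cells and 1.46 ± 0.21 CPM in wild-type cells (edgeR adjusted p = 0.00030 for a log2 fold change of 2.76). Dnmt3b and Dnmt3a, which place DNA methylation anew, had log2 fold changes of 1.58 and 1.26, Tcf15, a factor of cells leaving the naive state, 1.62, the ETS factor Etv4 1.36 and the Wnt effector Lef1 1.35. Nodal, a TGF-beta family ligand of the epiblast (-0.60, edgeR adjusted p = 0.0048), and Grhl2, a factor of epithelial enhancers (-0.45, edgeR adjusted p = 0.0072), were the 2 that fell, named after their values were seen. Fgf5, the classic marker of the primed epiblast, had 288 and 141 reads in Smg6-deficient libraries and 403 and 201 reads in wild-type libraries, groups that overlapped (log2 fold change -0.58, edgeR adjusted p = 0.27), and was also singled out after its values were seen.

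Of 34 neural genes listed outside the 10, 32 were tested, and 5 rose, 7 fell and 20 did not pass. Those counts are near the shares of all tested genes that rose (20.5%) and fell (19.2%). The median log2 fold change of the list was -0.32, against 0.0080 over all tested genes. Without Smg6-deficient replicate 2, 3 rose. Insm1, a zinc-finger factor of neural and endocrine precursors, stood at 6.70 ± 0.48 CPM in Smg6-deficient cells and 0.99 ± 0.092 CPM in wild-type cells (edgeR adjusted p = 0.00021 for a log2 fold change of 2.75). Sox11, a SoxC factor of immature neurons, rose by a log2 fold change of 1.48. Hesx1, a homeodomain repressor of the anterior neural plate, fell by 2.17 on the log2 scale, Stmn2, a microtubule regulator, fell by 0.99, the Notch effector Hes1 fell by 0.97 and the adhesion molecule Ncam1 fell by 0.68.

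Levels in the neural list ranged widely. Nes stood at 144.1 and 114.5 CPM in Smg6-deficient libraries and 120.7 and 124.1 CPM in wild-type libraries. Tubb3 stood at 38.5 and 38.6 CPM in Smg6-deficient libraries and 55.6 and 36.1 CPM in wild-type libraries. Neither passed (edgeR adjusted p = 0.62 and 0.32). Dcx and Olig2, which mark young neurons and neural progenitors, had few reads in both groups. Dcx had 9 and 5 reads in Smg6-deficient libraries and 5 and 17 reads in wild-type libraries. Olig2 had between 5 and 8 reads in every library. No listed neural gene was at 0 in any library. The summed level of the 34 genes, most of it from Stmn2 and from Sox2, which is also on the ES cell and family lists, was 263.2 and 251.6 RPKM in Smg6-deficient libraries and 396.0 and 317.4 RPKM in wild-type libraries.

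**Figure D4:**
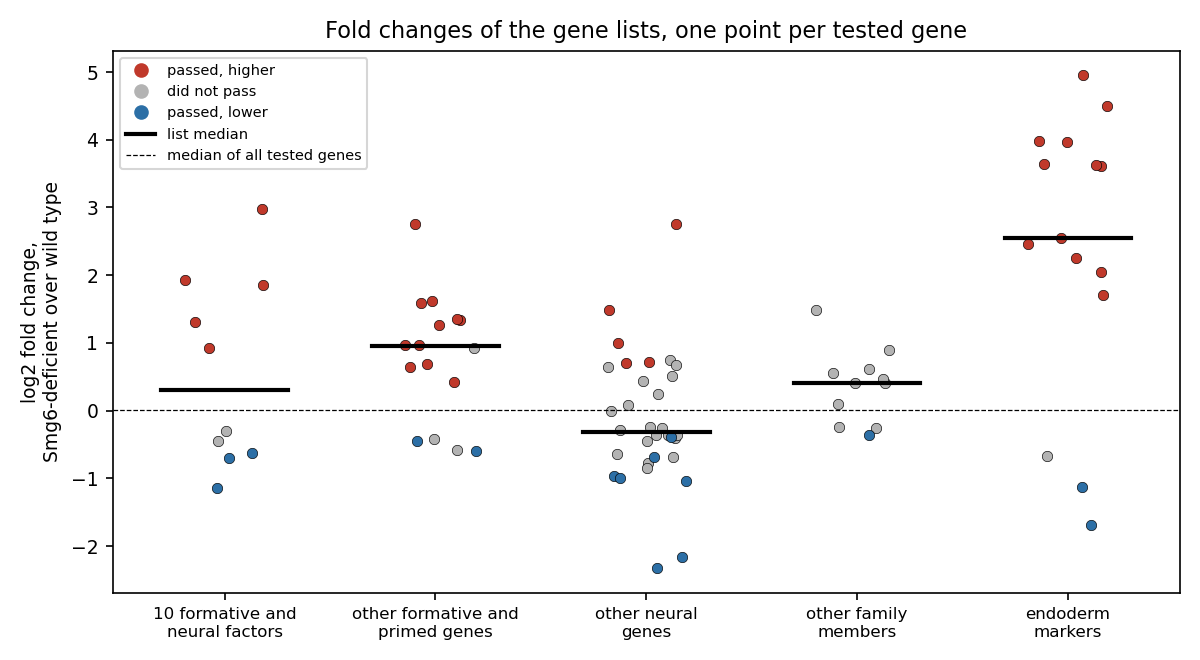
Log2 fold change of every tested gene (vertical axis, Smg6-deficient over wild type) in the 10 factors and 4 other lists, with thick lines at list medians and a dashed line at the median of all tested genes. Medians were 0.31 for the 10 factors, 0.95 for other formative and primed genes, -0.32 for other neural genes, 0.41 for other family members and 2.55 for endoderm markers.

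Family members of the 10 factors were mostly silent or low. Of 17 listed, 11 had enough reads to test, among them Sox2 at a high level. By edgeR 0 rose and 1 fell, while at an unadjusted p under 0.05 the counts were 1 higher and 1 lower, and DESeq2 and limma each called 0 higher and 1 lower. Without wild-type replicate 1, 3 of them passed as higher. Gbx1, the other Gbx gene, had 101 and 136 reads in Smg6-deficient libraries and 76 and 95 reads in wild-type libraries. Otx1 had at most 50 reads in any library, and Neurod2, Neurod6 and Pax4 at most 2. Outside the families, neural crest markers had 2 of 9 members higher, near the 20.5% of all tested genes, with Ets1 at a log2 fold change of 0.75, Sox9 at 0.13 (edgeR adjusted p = 0.40) and Twist1 at 0.39 (edgeR adjusted p = 0.13). Their summed level was 12.2 and 12.1 RPKM in Smg6-deficient libraries and 10.9 and 7.89 RPKM in wild-type libraries. Fibroblast markers summed to 160.6 and 138.9 RPKM in Smg6-deficient libraries and 142.0 and 96.9 RPKM in wild-type libraries. By edgeR 3 of 9 were higher, against the same 20.5%. DESeq2 and an unadjusted p under 0.05 each gave 5 higher, and limma gave 1. Of the 9 markers, 0 were lower by any of these counts. Among them Fbn1 had a log2 fold change of 0.73, Col1a1 0.49 (edgeR adjusted p = 0.049, passing in 5 of 14 alternatives) and Col1a2 0.37 (edgeR adjusted p = 0.065). The part of these cells in the levels of the 10 factors was not tested.

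**Figure D5:**
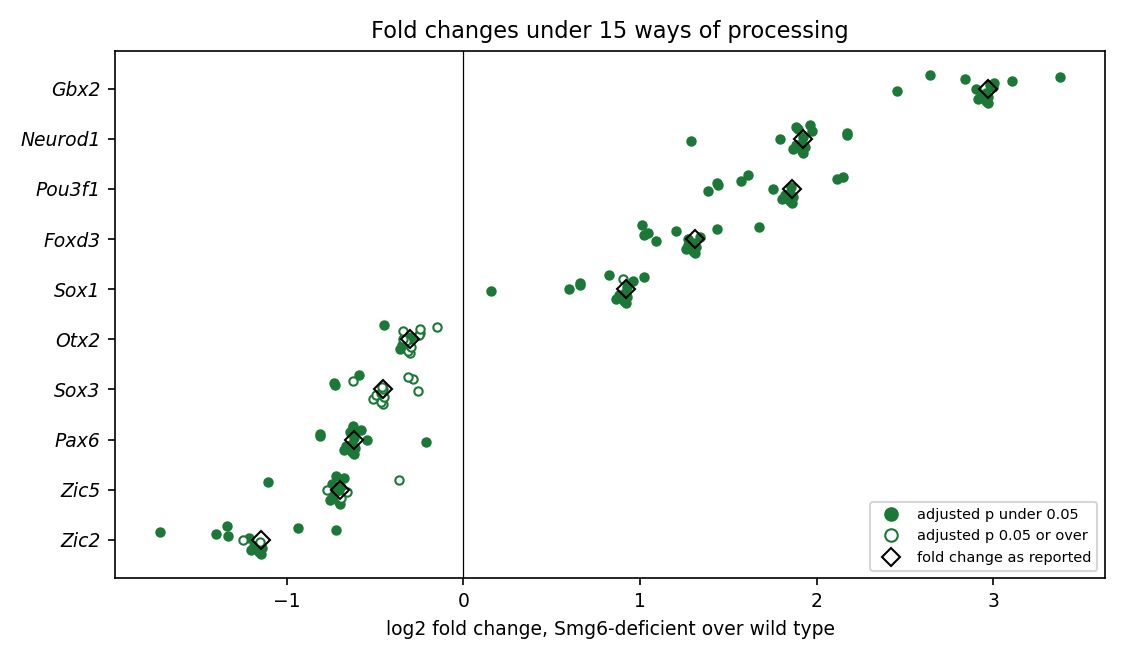
Log2 fold changes of the 10 genes (horizontal axis, Smg6-deficient over wild type) under 15 ways of processing, filled where the adjusted p was under 0.05, with a diamond at the value reported above. No gene changed sign. Gbx2, which ranged over log2 fold changes of 2.46 to 3.38, Neurod1, Pou3f1, Foxd3 and Pax6 passed in all 15.

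Most 50-base words of the 10 genes had no exact match in a transcript of another locus. Inexact matches were not searched. Of the 50-base words of each gene's M21 transcripts, matched exactly on both strands, none of Otx2, Pou3f1, Gbx2, Sox1, Sox3, Zic2 or Neurod1 occurred in a transcript of another locus, where overlapping genes are left aside. Foxd3 shared 0.84% with Foxd4, Pax6 shared 0.44% with many genes, and Zic5 shared 7.48% with Gm12241 and Tmem236. These are shares of words and not of reads, so the number of reads concerned is not known. Overlapping genes other than D130058E05Rik shared 9.66% of the words of Neurod1, 7.42% of those of Pou3f1 and 2.75% of those of Otx2. Antisense genes at these 3 loci (Gm26755, Gm2164 and Otx2os1) were not analysed here, and Pax6os1, antisense to Pax6, had at most 2 reads in any library.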

How the data were processed

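Total RNA (about 2.5 µg per library) was extracted with TRIzol, prepared with a TruSeq v2 kit and sequenced as single reads of 50 bases, per the labels' protocols. The alignment used TopHat2 2.0.9 and mm10, per the submitters' processing notes. Counter, annotation and strand handling: not given in the sources used here. The authors deposited whole-number read counts and RPKM values for each library, and the RPKM were set per gene length and library size by the authors, per the file headers.

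Symbols and structures came from GENCODE M21 (GRCm38), which named 35449 of 37224 identifiers, and promoter sequences from RefSeq (GRCm38.p6). Counts were filtered with filterByExpr (minimum count 10), TMM-scaled and tested in edgeR 4.0.16 (R 4.3.3) by the quasi-likelihood F test on genotype alone. The code was also run on simulated counts, drawn with the spread of these data and few changed genes. That run does not measure how the test behaves here. SE is the absolute log2 fold change over the square root of F. The common biological coefficient of variation was 0.118 with 2 residual degrees of freedom. Replicates differed beyond counting noise, with a chi-square over degrees of freedom of 42.0 in Smg6-deficient and 74.3 in wild-type cells. Depth limits the precision of genes with few reads, and no intervals on counts were used.

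The 10 members and the gene lists were chosen with earlier results of these data known, so their direction is not independent evidence. Named were the 10, Smg6, the 6 smallest adjusted p among passing genes of the 3 other lists, the 3 highest of each marker list, overlapping genes, and the 2 nearest profiles of each member past the threshold with an absolute log2 fold change of at least 1 (log2(CPM + 0.1), centred). Profiles were ranked among tested genes with a symbol. Other genes given with values (Nanog, Sox2, Zic1, Zic4, Gbx1, Otx1, Neurod2, Neurod6, Pax4, Fgf5, Nodal, Grhl2, Dcx, Olig2, Gata4, Gata6, Sox17, Ttr) were chosen after their values were seen. The same holds for Hnf4a, Afp, Apoa1, Nes and Tubb3. A gene that the rule names is not reported here.

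Alternatives were DESeq2 size factors, library size alone, no filter, a minimum of 50 counts in 2 libraries, DESeq2 1.42.0 (Wald), limma-trend (limma 3.58.1) after adding 1 or 0.1 to RPKM before log2, a block for replicate number, a spline correction for gene length and GC content alone or with the block, and each library left out. With 1 library left in a group, it is assumed to vary like the other group.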

Additional observations from a re-analysis of the deposited data

How the results depend on the processing

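Over 14 alternatives, none of the 10 genes changed sign. Gbx2, Neurod1, Pou3f1, Foxd3 and Pax6 passed in all, Sox1 in 13, Zic2 in 11 and Zic5 in 10. Otx2 passed in 6 and Sox3 in 3. With the length and GC correction alone, log2 fold changes were smaller for Pou3f1 (1.44), Foxd3 (1.02), Sox1 (0.66) and Otx2 (-0.25). They were larger in size for Neurod1 (2.17), Zic2 (-1.33), Pax6 (-0.81) and Sox3 (-0.73), and little changed for Gbx2 (2.98) and Zic5 (-0.70). Limma-trend on log2(RPKM + 1), a scale that understates low genes, gave log2 fold changes of 1.29 for Neurod1, -0.21 for Pax6 and 0.16 for Sox1, all passing; limma-trend called neither Zic gene with either pseudocount (adjusted p from 0.069 to 0.11), and Zic5 also missed with no filter (0.053). Otx2 passed with library size alone, with 50 counts in 2 libraries and by DESeq2 (adjusted p = 0.036, 0.040 and 0.049).

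The labels do not say that replicate numbers pair libraries. Deviations of same-numbered libraries correlated at 0.15 across genes, with only 2 pairs. With the replicate number as a block, 5 of the 10 rose and 4 fell, Otx2 being added (adjusted p = 0.018), 5074 of all genes rose and 4613 fell, 4 formative and primed genes fell against 2, and 1 paralog rose against 0. The block with the length and GC correction gave 5 of the 10 lower and 1 paralog higher.

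Limma-trend lowered 1 of the 10 with either pseudocount, against 3, raised 2700 (pseudocount 1) and 2643 (0.1) of all genes, against 4285, and raised 3 and 2 neural genes, against 5. With one library left out, 4 to 5 of the 10 rose and 2 to 5 fell; without wild-type replicate 2 it was 5, Otx2 and Sox3 being added. Of all genes 2805 to 5578 rose and 2300 to 4899 fell, the low ends without a Smg6-deficient library. Formative and primed genes that rose numbered 10 to 12 and those that fell 1 to 3, neural genes 3 to 7 and 5 to 10, and paralogs 0 to 3 and 0 to 2; neural genes that rose were fewest without Smg6-deficient replicate 2, and paralogs that rose were most without wild-type replicate 1. Tdgf1, an ES cell marker, had a log2 fold change of 0.097 without wild-type replicate 1 and -0.54, passing, without wild-type replicate 2, against -0.25. The cause was not tested in any of these cases. With 2 libraries a group, small changes such as that of Otx2 lie at the limit of what can be called, and Sox1 rests on at most 259 reads.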
